A study of Mus musculus with 6 samples.

Results

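The cells studied were mouse dendritic cells that had been incubated with the adenovirus AdIkBa-SR and had received no TNFa, set against the same kind of cells left without virus. The comparison rests on 2 of the 6 arrays in the series, 1 for AdIkBa-SR and 1 for untreated cells, picked by their sample titles. Of 22626 probe sets other than controls on the Affymetrix MOE430A array, 14902 were measured, meaning that their signal was above a floor of 53.5 on at least 2 of the 6 arrays. They read 8933 genes, each taken from its brightest probe set with 1 gene symbol.

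All cells were grown in culture from the bone marrow of a 13-week-old female CAR-transgenic mouse, so every group, the untreated one included, carries the CAR transgene. CAR is the receptor that this type of adenovirus binds on human cells, and the sources used here do not name the promoter that drives the transgene. Progenitors were expanded for 7 days and then turned into dendritic cells with 250 U/ml GM-CSF over 7 more days. The AdIkBa-SR cells were incubated with that virus at 1500 particles per cell for 2 h, then cultured for a further 18 h. The AdOVA cells received the control virus AdOVA in the same way, and untreated cells received no virus. A further 3 groups had the same virus states with 50 ng/ml TNFa added for 4 h, and are called AdIkBa-SR+TNFa, AdOVA+TNFa and TNFa. Each group has 1 array. The labels name no mock transduction, and nothing in them states whether cultures were separate, so spread between arrays may be technical. Precision is limited by how few arrays there are.

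NF-kB is a family of transcription factors that IkBa holds inactive in the cytoplasm. Signals from microbes or from TNFa lead to the breakdown of IkBa, NF-kB then enters the nucleus, and in dendritic cells it switches on cytokines, chemokines and costimulatory molecules. The super-repressor form of IkBa resists that breakdown. An adenovirus entering a dendritic cell can be sensed by nucleic acid receptors that act through NF-kB and also through interferon regulatory factors and MAP kinases, and type I interferon then induces antiviral genes. The comparison asks what a virus particle changes in these cells when it carries that inhibitor. NF-kB activity was not measured here.

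The median signal was 74.4 on the AdIkBa-SR array and 77.4 on the untreated array, and 57.9% and 59.2% of probe sets were above the floor. The array headers record that the AdIkBa-SR array was washed and stained with another fluidics protocol, with 0 cycles recorded for 2 washes and a first stain of 420 s. The other 5 arrays had 10 and 4 wash cycles and 600 s. The headers also give 2 recorded hybridization times, which group AdIkBa-SR, AdIkBa-SR+TNFa and AdOVA+TNFa together, apart from untreated, TNFa and AdOVA. Wash protocol, hybridization time and virus cannot be told apart in the pair of arrays without TNFa. In the pair with TNFa the wash protocol was shared and the hybridization time was not. Dendritic cell markers were present: Itgax, the gene of CD11c, read 664 with AdIkBa-SR and 699 untreated, and Cd74, the class II invariant chain, 1832 and 2558. The macrophage genes Csf1r and Adgre1 were also bright, at 6049 against 7242 and 4110.1 against 4725. Of the 7 measured macrophage markers, 3 were higher with AdIkBa-SR than untreated and 4 lower, with a median log2 ratio of -0.02. Of the T cell, B cell and NK cell markers, 1 of 7, 2 of 7 and 3 of 6 were measured, the brightest of them Prf1, at 79.2 with AdIkBa-SR and 103 untreated.

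AdIkBa-SR left the transcriptome close to that of untreated cells. Of 14902 measured probe sets, 87 (0.584%) were at least 2-fold higher with AdIkBa-SR than untreated and 81 (0.544%) at least 2-fold lower. At least 4-fold, 3 were higher and 0 lower. The log2 ratios had a median of -0.002 and an SD of 0.336 across probe sets, and 86.9% of them lay within 0.5 of 0. Among the 15 pairs that 6 arrays can form, this pair had the fewest probe sets at least 2-fold apart, 168, and the next closest pair, untreated and TNFa, had 266. The pair AdIkBa-SR+TNFa and TNFa, with the same virus, had 853. The control virus AdOVA against the same untreated array gave 658 that were higher by that fold (4.42%) and 664 that were lower (4.46%). Counted by gene, 56 of 8933 were higher with AdIkBa-SR than untreated (0.627%) and 53 lower (0.593%), against 404 higher (4.52%) and 372 lower (4.16%) with AdOVA. With the floor at the 25th percentile instead, 330 probe sets were at least 2-fold higher with AdIkBa-SR than untreated and 397 lower.

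**Figure D1:**
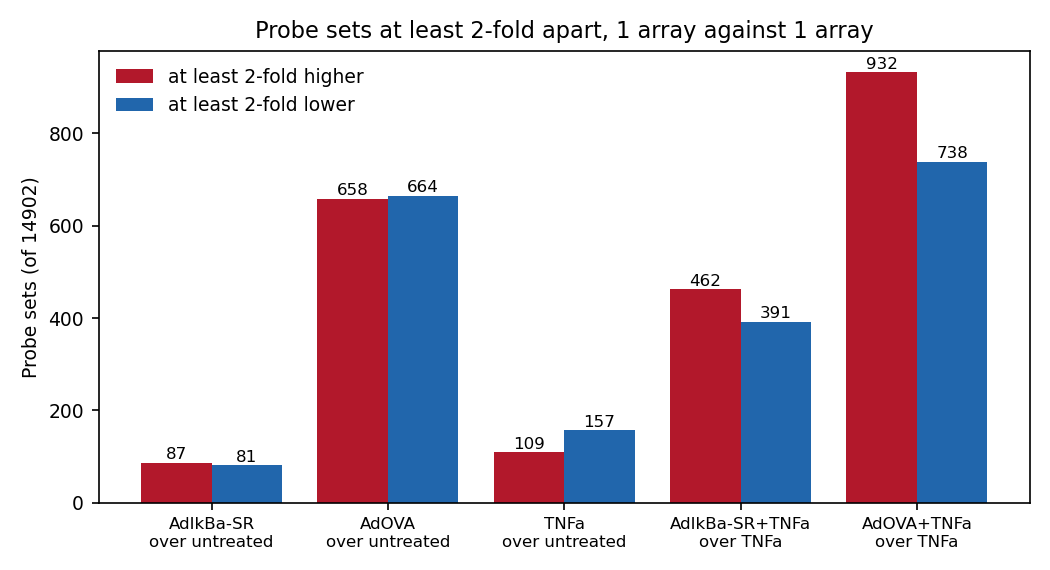
Number of measured probe sets (of 14902) at least 2-fold higher (red) or lower (blue) on 1 array over another, for 5 pairs of arrays. AdIkBa-SR over untreated has 87 and 81, the lowest bars, while AdOVA over untreated has 658 and 664 and AdIkBa-SR+TNFa over TNFa has 462 and 391.

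The 87 higher probe sets were brighter than the 81 lower ones. The brighter array of the pair had a median signal of 209 for the higher probe sets and 142 for the lower ones, beside 164 over all measured probe sets. At 500 or more on the brighter array stood 24 of the 87 and 4 of the 81. The dim array was under the floor for 22 of the higher and 32 of the lower probe sets, so that their ratio is a lower bound.

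The pair AdIkBa-SR+TNFa and TNFa shares no array with the pair without TNFa and shows the same virus in cells given TNFa, so it stands in for a repeat. In both pairs, however, the AdIkBa-SR array and the array without virus had different hybridization times, split the same way. Virus and hybridization time therefore cannot be told apart in what both pairs share. There AdIkBa-SR+TNFa exceeded TNFa at least 2-fold for 462 probe sets (3.1%) and was at least 2-fold below it for 391 (2.62%). At least 2-fold in the same direction in both pairs were 20 probe sets higher (0.134%) and 6 lower (0.0403%), while 2 were higher without TNFa and lower with it, and 9 the reverse. Across the 14902 probe sets the log2 ratios of both pairs had a Pearson correlation of 0.014, where the same 2 pairs for AdOVA had 0.53 (probe sets share arrays and are not independent). Most of the probe sets apart in 1 AdIkBa-SR pair were therefore not apart in the other.

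By gene, 15 were at least 2-fold higher in both pairs (0.168% of 8933): Mmp13, Ccl7, Ccl2, Ccl12, Ccl4, Cxcl1, Cxcl10, Oasl1, Isg20, Fcgr1, Ifitm6, Emp1, Scgn, Lgals2 and Hivep2. Lower in both were 6 (0.0672%): Ltc4s, Lsm7, Ccl22, Apex1, Idi1 and Fas. Of these 15, 6 are chemokines. Further probe sets, not the brightest of their gene, were at least 2-fold higher in both pairs for Rsad2, Fabp4, Ccnd1 and Zdhhc3.

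**Figure D2:**
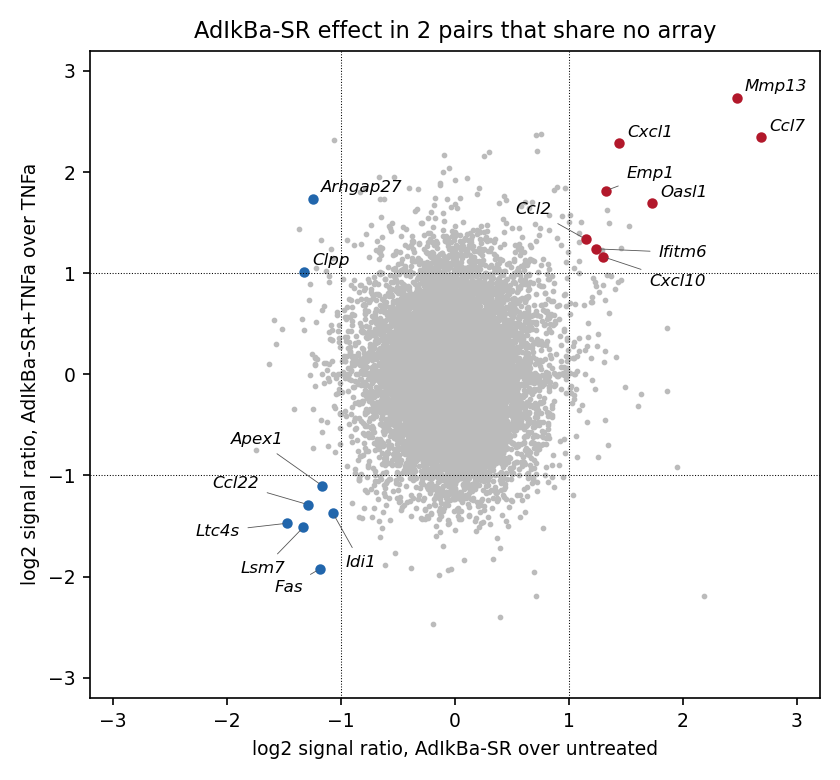
Each grey point is a measured probe set, with its log2 signal ratio AdIkBa-SR over untreated on the x axis and AdIkBa-SR+TNFa over TNFa on the y axis, dotted lines marking 2-fold, and 1 point outside the axes. Mmp13 and Ccl7 stand farthest out at the upper right, Ltc4s, Lsm7 and Fas at the lower left, and Arhgap27 and Clpp (blue, upper left) have opposite signs in the 2 pairs.

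To test the virus across both TNFa states, limma was fitted to all 6 arrays with additive terms for virus and TNFa, which leaves 2 residual degrees of freedom. Its spread comes from how unequal the TNFa response was between virus states and is moderated across probe sets, with no replicate arrays behind it. After Benjamini-Hochberg adjustment over 14902 probe sets, 1 probe set was called higher with AdIkBa-SR than without virus (0.00671%), that of Mmp13, and 0 lower (0.0%), with 632 at an unadjusted p under 0.05. AdOVA against no virus gave 315 higher (2.11%) and 177 lower (1.19%) in the same fit. AdIkBa-SR against AdOVA gave 132 higher (0.886%) and 234 lower (1.57%), and each difference between the viruses below that carries an adjusted p comes from this contrast, averaged over both TNFa states. Those calls depend on the arrays in the fit: 0 of either direction were left without the AdOVA array, without the AdOVA+TNFa array or with hybridization time as a block, with 2060, 1956 and 2015 at an unadjusted p under 0.05 by the same limma test. Scaling the arrays to equal medians turned the split to 514 higher and 230 lower.

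Mmp13 encodes collagenase-3, a secreted protease that cleaves fibrillar collagen. It is on chromosome 9, and 1 probe set reads it. Its signal was 4301 with AdIkBa-SR, 2688 with AdOVA and 777 untreated. With TNFa it was 3828 with AdIkBa-SR+TNFa, 2886 with AdOVA+TNFa and 575 with TNFa. All 4 virus arrays were above both arrays without virus, and AdIkBa-SR was above AdOVA in each TNFa state. The log2 ratio over no virus was 2.47 without TNFa and 2.74 with it, and limma's fitted difference was 2.60 (SE 0.24, adjusted p = 0.0248). The call was lost without the untreated, TNFa, AdOVA or AdOVA+TNFa array (adjusted p between 0.542 and 1.00) and kept without either AdIkBa-SR array (0.00429 and 0.00542), with a fitted difference between 2.40 and 2.80 throughout. With hybridization time as a block the difference was 2.20 (adjusted p = 0.834). Against AdOVA, Mmp13 differed by 0.54 (SE 0.24, adjusted p = 0.223), which did not pass.

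Promoters of 4 genes are given because their signals separate the patterns described here: Mmp13, at least as high with AdIkBa-SR as with AdOVA, against Cxcl10, Ifit1 and Cxcl1, lower with AdIkBa-SR than with AdOVA. The sequences are RefSeq promoters on mouse build GRCm38.p6, 250 bases before and 50 after the gene's start, on the gene's strand. Capitals mark matches, on either strand, to the core of the interferon response element (GAAA, any 2 bases, GAAA), a loose kB motif for NF-kB (GGGA, any 4 bases, CC) and the AP-1 motif (TGANTCA), AP-1 being the dimer of Fos and Jun proteins.
Mmp13 (chr9:7272264-7272563, plus strand): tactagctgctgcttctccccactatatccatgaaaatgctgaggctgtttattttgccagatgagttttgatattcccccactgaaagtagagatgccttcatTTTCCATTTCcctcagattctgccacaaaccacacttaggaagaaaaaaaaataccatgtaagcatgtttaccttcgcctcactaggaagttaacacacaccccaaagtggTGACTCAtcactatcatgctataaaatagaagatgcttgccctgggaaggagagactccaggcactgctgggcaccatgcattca
Cxcl10 (chr5:92348840-92349139, minus strand): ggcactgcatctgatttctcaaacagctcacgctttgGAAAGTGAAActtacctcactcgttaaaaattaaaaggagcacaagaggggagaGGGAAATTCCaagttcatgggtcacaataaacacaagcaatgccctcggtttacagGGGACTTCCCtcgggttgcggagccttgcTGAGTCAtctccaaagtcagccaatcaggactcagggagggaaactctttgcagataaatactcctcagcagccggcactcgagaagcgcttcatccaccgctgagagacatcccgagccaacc
Ifit1 (chr19:34640639-34640938, plus strand): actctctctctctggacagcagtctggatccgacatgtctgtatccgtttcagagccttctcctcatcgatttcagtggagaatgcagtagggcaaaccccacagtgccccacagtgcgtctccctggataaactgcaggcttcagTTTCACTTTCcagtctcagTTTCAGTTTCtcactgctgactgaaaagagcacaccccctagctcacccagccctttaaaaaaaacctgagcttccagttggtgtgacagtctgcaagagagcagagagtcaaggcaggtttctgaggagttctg
Cxcl1 (chr5:90890995-90891294, plus strand): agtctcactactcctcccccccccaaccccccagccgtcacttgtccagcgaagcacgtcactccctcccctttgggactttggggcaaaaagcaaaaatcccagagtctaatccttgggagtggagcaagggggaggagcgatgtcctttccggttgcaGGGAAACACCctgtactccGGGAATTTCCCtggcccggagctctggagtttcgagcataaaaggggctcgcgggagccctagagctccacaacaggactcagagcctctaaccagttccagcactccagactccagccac

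In the Mmp13 promoter the AP-1 motif lay 35 to 29 bases before the start, and a match to the interferon response core 146 to 137 bases before it, with no kB match. Cxcl10 held the interferon response core at 213 to 204 bases, kB matches at 159 to 150 and 103 to 94 bases and an AP-1 match at 74 to 68 bases before its start. Ifit1 held 2 interferon response cores, at 104 to 95 and 85 to 76 bases, and neither other motif. Cxcl1 held kB matches at 90 to 81 and at 71 to 62 bases, the second overlapping a further match on the other strand at 70 to 61 bases. Of 12 of the 15 genes higher in both pairs that the promoter table holds, 2 had the interferon response core, 4 a kB match and 4 an AP-1 match. Oasl1 and Isg20 were among those without the interferon response core, and Ccl12, Fcgr1 and Ifitm6 had none of the motifs. For the 116 genes with a promoter that limma called lower with AdIkBa-SR than AdOVA, the shares were 13.8%, 38.8% and 18.1%. Over all 7257 measured genes with a promoter these shares were 3.93%, 29.8% and 7.37%, and over all 32851 promoters listed by RefSeq here they were 3.44%, 20.7% and 7.81%. A match describes letters in the window and shows no binding.

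Chemokines, the secreted proteins that draw leukocytes, had the highest median ratio of the 26 gene lists. Those lists were chosen with earlier results of these data known. Of 20 measured chemokines, 7 were at least 2-fold higher with AdIkBa-SR than untreated and 1 lower. Their median log2 ratio was 0.55, beside -0.01 over all measured genes. With AdOVA 7 were higher and 3 lower, with a median also of 0.55. Of all genes, 0.627% were at least 2-fold higher and 0.593% lower with AdIkBa-SR, and 4.52% and 4.16% with AdOVA. The equal medians covered different sizes for single genes, described next in groups by receptor.

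The monocyte chemoattractants Ccl2, Ccl7 and Ccl12, ligands of CCR2 whose genes lie on chromosome 11, were at least as high with AdIkBa-SR as with AdOVA. Ccl7 had signals of 2608 with AdIkBa-SR, 1550.5 with AdOVA and 405 untreated. With TNFa its signals were 2221 with AdIkBa-SR+TNFa, 694 with AdOVA+TNFa and 437 with TNFa, again highest with AdIkBa-SR. Its log2 ratios over no virus were 2.69 and 2.34, and limma's difference of 2.51 (SE 0.31) did not pass (adjusted p = 0.11). Ccl2 read 13259 with AdIkBa-SR, 9689 with AdOVA and 5977 untreated, and 13014 with AdIkBa-SR+TNFa, 5536 with AdOVA+TNFa and 5162 with TNFa. Its log2 ratios over no virus, 1.15 and 1.33, came from bright signals on every array. For Ccl12 the signal was 136 with AdIkBa-SR, 74.8 with AdOVA and, under the floor, 6.79 untreated. With TNFa it was 151 with AdIkBa-SR+TNFa and, both under the floor, 29 with AdOVA+TNFa and 4.5 with TNFa. That makes Ccl12 at least 2.55-fold higher with AdIkBa-SR than untreated, and at least 2.82-fold higher with AdIkBa-SR+TNFa than with TNFa. Limma placed Ccl12 above AdOVA (log2 1.18, SE 0.25, adjusted p = 0.0467), but not Ccl7 (1.21, SE 0.31, adjusted p = 0.0747) or Ccl2 (0.84, SE 0.30, adjusted p = 0.151). The Ccl12 difference rests in part on an AdOVA+TNFa signal that was set to the floor.

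Cxcl1 and Cxcl2, CXCR2 ligands that draw neutrophils, and Cxcl10 and Cxcl11, interferon-induced CXCR3 ligands that draw activated T cells, were higher with AdIkBa-SR than untreated and higher again with AdOVA. Cxcl1 had signals of 749 with AdIkBa-SR, 3011 with AdOVA and 276 untreated. With TNFa they were 1393 with AdIkBa-SR+TNFa, 2638 with AdOVA+TNFa and 286 with TNFa. AdIkBa-SR lay between the other 2 states both times, with log2 ratios of 1.44 and 2.28 over no virus. Cxcl10 had signals of 774 with AdIkBa-SR, 7909 with AdOVA and 314 untreated, and of 739 with AdIkBa-SR+TNFa, 7073 with AdOVA+TNFa and 330.3 with TNFa, so that the step above no virus with AdIkBa-SR was log2 1.30 where AdOVA's was 4.65. The difference between the viruses was -3.31 (SE 0.22, adjusted p = 0.00157). Cxcl2 read 5015 with AdIkBa-SR, 9232 with AdOVA and 2965 untreated and Cxcl11 read 168 with AdIkBa-SR, 1138 with AdOVA and 94 untreated, both under 2-fold above untreated with AdIkBa-SR (log2 0.76 and 0.84).

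The CCR4 ligands Ccl22 and Ccl17, made by maturing dendritic cells, were on the other side. Ccl22 had signals of 631 with AdIkBa-SR, 615 with AdOVA and 1542 untreated, and 676 with AdIkBa-SR+TNFa, 1391 with AdOVA+TNFa and 1651 with TNFa. Both AdIkBa-SR arrays and the AdOVA array were low, and the other 3 were high. Ccl17 read 1029 with AdIkBa-SR, 546 with AdOVA and 1683 untreated, a log2 ratio of -0.71 for AdIkBa-SR and -1.62 for AdOVA, and limma called it higher with AdIkBa-SR than AdOVA (log2 1.22, SE 0.24, adjusted p = 0.0409). Ppbp, the platelet CXC chemokine CXCL7, was higher with AdIkBa-SR and lower with AdOVA than untreated, at 812 with AdIkBa-SR, 106 with AdOVA and 347 untreated. With TNFa the same order held, at 735 with AdIkBa-SR+TNFa, 56.4 with AdOVA+TNFa and 392 with TNFa, and the 2 viruses differed by log2 3.32 (SE 0.31, adjusted p = 0.00377).

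**Figure D3:**
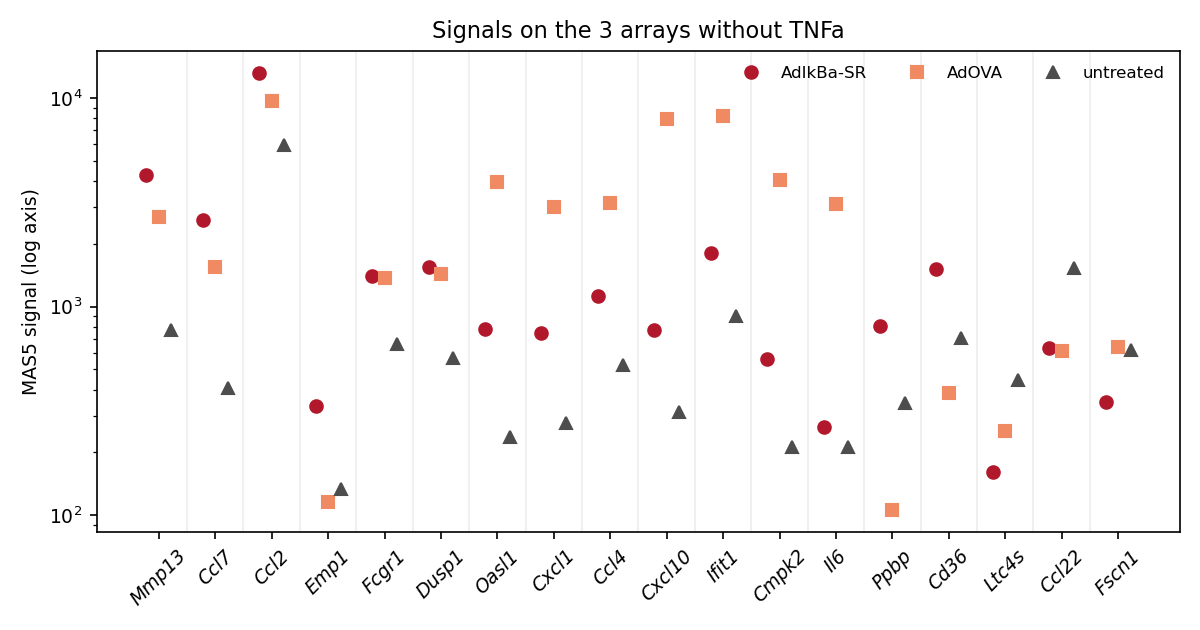
MAS5 signal (log axis) of 18 genes on the arrays AdIkBa-SR (red circles), AdOVA (orange squares) and untreated (grey triangles), 1 array each, no TNFa. Mmp13, Ccl7, Ccl2, Fcgr1 and Dusp1 are as high or higher with AdIkBa-SR as with AdOVA, Oasl1 to Cmpk2 lie between untreated and AdOVA, Il6 stays near its untreated signal, and Ltc4s, Ccl22 and Fscn1 are lowest or nearly so with AdIkBa-SR.

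Interferon-stimulated antiviral genes were slightly to moderately higher with AdIkBa-SR than untreated. All 24 measured antiviral effectors had a log2 ratio above 0, from 0.06 to 1.72, with a median of 0.40, and 7 were at least 2-fold higher. With AdOVA 13 were at least 2-fold higher, with a median of 1.02, and with AdIkBa-SR+TNFa over TNFa 23 of 24 were above 0, with a median of 0.60. Over all genes 3786 of 8933 had a ratio above 0 with AdIkBa-SR, and 0.627% were at least 2-fold higher, against 4.52% with AdOVA. The 24 genes share interferon as inducer and the same 2 arrays, so their signs are not independent.

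Oasl1, an interferon-induced protein related to oligoadenylate synthetase, was highest of the list by ratio. Its signals were 782 with AdIkBa-SR, 3971 with AdOVA and 237 untreated, and 869.7 with AdIkBa-SR+TNFa, 4396 with AdOVA+TNFa and 268 with TNFa. The log2 ratios over no virus, 1.72 and 1.70, were nearly equal in both TNFa states, and limma's difference from no virus was 1.71 (SE 0.21, adjusted p = 0.11). Ifit1, Ifit2 and Ifit3, which bind viral RNA or each other, had signals of 1803, 1613 and 1894 with AdIkBa-SR, of 8235, 6032 and 6328 with AdOVA, and of 903, 624 and 769 untreated. Rsad2, the gene of the antiviral enzyme viperin, read 6952 with AdIkBa-SR, 19264 with AdOVA and 2889 untreated on its brightest probe set. Cmpk2, a mitochondrial nucleotide kinase, read 558 with AdIkBa-SR, 4036 with AdOVA and 212 untreated. Isg20, an RNA exonuclease, read 1042 with AdIkBa-SR, 2775 with AdOVA and 489.9 untreated, and Mx1, a GTPase that traps viral particles, read 199.6 with AdIkBa-SR, 617 with AdOVA and 88.7 untreated. Each of these genes kept the order AdOVA, AdIkBa-SR, untreated. Oas3 differed little between the arrays, at 1092 with AdIkBa-SR, 964 with AdOVA and 909 untreated, and Ifi35 was alike with both viruses, at 401 with AdIkBa-SR, 404 with AdOVA and 263 untreated.

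Limma called 8 of the 24 antiviral effectors lower with AdIkBa-SR than with AdOVA and 0 higher, where 137 genes of 8933 were called lower (1.53%) and 74 higher (0.828%). The called differences included Cmpk2 (log2 -3.00, SE 0.23, adjusted p = 0.00355), Oasl1 (-2.34, SE 0.21, adjusted p = 0.00377) and Ifit1 (-1.85, SE 0.25, adjusted p = 0.013).

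The interferon-inducible GTPases attack the membranes of vacuoles that hold microbes. All 9 measured were above 0 with AdIkBa-SR, from 0.17 to 0.86, and 0 of 9 reached 2-fold, whereas all 9 did with AdOVA (median log2 0.47 and 1.99). Of all genes, 0.627% were at least 2-fold higher with AdIkBa-SR and 4.52% with AdOVA. Gbp2 read 1605 with AdIkBa-SR, 8536 with AdOVA and 1425 untreated, and Iigp1 read 272 with AdIkBa-SR, 638 with AdOVA and 159 untreated. In the pair with TNFa, AdIkBa-SR gave 4 of the 9 above 0 and a median of -0.10. Limma called 8 of 9 lower with AdIkBa-SR than AdOVA, where 1.53% of all genes were called lower. Among interferon regulators, Irf7, the master factor of the interferon response, read 3084 with AdIkBa-SR, 3184 with AdOVA and 2784 untreated and Ifnb1, the gene of interferon beta, 82.1 with AdIkBa-SR, 259.8 with AdOVA and 62.4 untreated. The nucleic acid sensors had 0 of 14 at least 2-fold apart with AdIkBa-SR, near the share over all genes (0.627% higher and 0.593% lower). Ifih1, the RNA sensor MDA5, read 972 with AdIkBa-SR, 1867 with AdOVA and 589 untreated.

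Inflammatory cytokines stood near their untreated signal with AdIkBa-SR. None of 17 measured cytokine genes was at least 2-fold apart with AdIkBa-SR, and the median log2 ratio was 0.08. That count is near the share over all genes, 0.627% higher and 0.593% lower. With AdOVA 6 were higher, with a median of 0.70, where 4.52% of all genes were higher. In the pair with TNFa, AdIkBa-SR+TNFa had 1 of the 17 at least 2-fold higher (3.13% of all genes). Il6 read 264 with AdIkBa-SR, 3114 with AdOVA and 213 untreated, and with TNFa 452 with AdIkBa-SR+TNFa, 2749 with AdOVA+TNFa and 326 with TNFa. Il1b read 3809 with AdIkBa-SR, 13873 with AdOVA and 3788 untreated, with AdIkBa-SR and untreated nearly equal. Tnf read 195 with AdIkBa-SR, 598 with AdOVA and 139 untreated, and Il12a, a subunit of interleukin 12, 397 with AdIkBa-SR, 1119.7 with AdOVA and 426 untreated. The 2 viruses differed for Il6 by log2 -3.08 (SE 0.28, limma adjusted p = 0.00377). Of the 17, limma called 5 lower with AdIkBa-SR than with AdOVA, where 1.53% of all genes were called lower.

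Among 20 measured genes of NF-kB itself and its inhibitors, 7 were above 0 and 13 below with AdIkBa-SR (median log2 -0.08), near the split of all 8933 genes (3786 above, 4622 below), and in the pair with TNFa 10 were above and 10 below. Of the 20, 1 was at least 2-fold lower (0.593% of all genes), Nfkb2, at 85.9 with AdIkBa-SR, 127 with AdOVA and 201 untreated. Relb, the partner of the Nfkb2 product, read 18.2 with AdIkBa-SR, under the floor, 109 with AdOVA and 90.7 untreated. In the TNFa pair Nfkb2 was not lower, at 336 with AdIkBa-SR+TNFa and 313 with TNFa. Tnfaip3, the gene of the feedback inhibitor A20, read 110.3 with AdIkBa-SR, 512 with AdOVA and 162 untreated, and Traf1, a signalling adaptor, 169.6 with AdIkBa-SR, 652 with AdOVA and 243 untreated. Limma called both lower with AdIkBa-SR than with AdOVA (Tnfaip3 log2 -2.46, SE 0.33, adjusted p = 0.0128).

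Nfkbia, the gene of IkBa, gives no check of delivery, because whether its 4 probe sets read the viral copy is not known. The brightest read 10118 with AdIkBa-SR, 16337 with AdOVA and 10622 untreated. The 4 probe sets were all slightly lower with AdIkBa-SR than untreated, with log2 ratios of -0.07, -0.10, -0.39 and -0.44. In AdIkBa-SR+TNFa over TNFa they were split in sign, at -0.32, 0.55, -0.24 and 0.87 in the same order.

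Of 20 measured genes of dendritic cell maturation, 14 were below 0 with AdIkBa-SR (median -0.25), as were 4622 of all 8933 genes, whereas with AdOVA the median was 0.38. Ccr7, the receptor that guides mature cells to lymph nodes, read 101 with AdIkBa-SR, 402 with AdOVA and 195 untreated. Icam1, an adhesion molecule, read 352 with AdIkBa-SR, 815 with AdOVA and 617 untreated. Fscn1, the actin-bundling fascin of mature dendritic cells, read 348 with AdIkBa-SR, 641 with AdOVA and 623 untreated on its brightest probe set. With TNFa it read 309.5 with AdIkBa-SR+TNFa, 940.1 with AdOVA+TNFa and 824 with TNFa, so that both AdIkBa-SR arrays were below the other 4. This order did not hold on a dimmer probe set, at 89.8 with AdIkBa-SR+TNFa and 81.6 with TNFa. The mean without TNFa over its measured probe sets was log2 -0.51. Cd86, a costimulatory ligand for T cells, was the 1 gene at least 2-fold higher with AdIkBa-SR (0.627% of all genes). It read 1140.4 with AdIkBa-SR, 1155 with AdOVA and 564 untreated, though with TNFa it was 699 with AdIkBa-SR+TNFa and 758 with TNFa. Limma called 7 of the 20 lower with AdIkBa-SR than AdOVA, among them Fscn1 (log2 -1.24, SE 0.25, adjusted p = 0.0439). Over all genes 1.53% were called lower in that contrast. Of the 10 measured dendritic cell markers, 8 were below 0, with a median of -0.37 and a summed signal of 10352 with AdIkBa-SR, 10459 with AdOVA and 11765 untreated. In the pair with TNFa 8 of the 10 were above 0, with a median of 0.37. In bulk RNA, fewer cells of a type and less RNA per cell cannot be told apart.

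Among 19 measured receptors for uptake, 15 were above 0 with AdIkBa-SR (median 0.24) and 2 at least 2-fold higher, Cd36 and Fcgr1. Over all genes 3786 of 8933 were above 0 and 0.627% at least 2-fold higher. Cd36, a scavenger receptor for lipids, read 1514 with AdIkBa-SR, 386 with AdOVA and 711 untreated, and 1136 with AdIkBa-SR+TNFa, 314 with AdOVA+TNFa and 969 with TNFa. AdOVA was lowest in both TNFa states, and the 2 viruses differed by log2 1.91 (SE 0.27, adjusted p = 0.0147). Fcgr1, the high-affinity IgG receptor, was alike with both viruses, at 1399 with AdIkBa-SR, 1367 with AdOVA and 659 untreated, and 1198 with AdIkBa-SR+TNFa, 1011 with AdOVA+TNFa and 482 with TNFa, where the difference between viruses was log2 0.14 (SE 0.22). Cd93 and Itgax were near untreated with AdIkBa-SR and low with AdOVA, at 702 with AdIkBa-SR, 117 with AdOVA and 650.2 untreated for Cd93. P2ry6, a receptor for extracellular UDP, read 556 with AdIkBa-SR, 38.3 with AdOVA, under the floor, and 249 untreated. With TNFa, however, P2ry6 read 469 with AdIkBa-SR+TNFa, 282 with AdOVA+TNFa and 387 with TNFa.

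Other genes higher in both pairs included Emp1, an epithelial membrane protein, and Ifitm6, a myeloid member of the interferon-induced transmembrane family. Emp1 read 334 with AdIkBa-SR, 116 with AdOVA and 134 untreated, and 422 with AdIkBa-SR+TNFa, 148 with AdOVA+TNFa and 119.9 with TNFa. Ifitm6 read 551 with AdIkBa-SR, 234 with AdOVA and 234 untreated, and 405 with AdIkBa-SR+TNFa, 107 with AdOVA+TNFa and 171 with TNFa. For both, the 2 AdIkBa-SR arrays stood above the other 4, and limma called them higher than with AdOVA (Emp1 log2 1.52, SE 0.29, adjusted p = 0.0366, and Ifitm6 1.58, SE 0.28, adjusted p = 0.031). Scgn, a calcium-binding protein, read 227 with AdIkBa-SR, 163 with AdOVA and 110.0 untreated. Lgals2, a galectin, read 244 with AdIkBa-SR, 231 with AdOVA and 97 untreated. Hivep2, a zinc finger factor, read 113 with AdIkBa-SR, 148 with AdOVA and, under the floor, 17.9 untreated.

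Of the 6 genes lower in both pairs, all but Ccl22 had untreated signals under 500. Ltc4s, the synthase that makes leukotriene C4, read 160.4 with AdIkBa-SR, 253 with AdOVA and 445 untreated, and 139.9 with AdIkBa-SR+TNFa, 138 with AdOVA+TNFa and 388 with TNFa. The log2 ratio over no virus was -1.47 in each TNFa state (limma SE 0.29, adjusted p = 0.563). Fas, the death receptor, was 52.6 with AdIkBa-SR, just under the floor, 221 with AdOVA and 122 untreated, and 61.5 with AdIkBa-SR+TNFa, 193 with AdOVA+TNFa and 233 with TNFa. It was at least 2.27-fold lower than untreated, and lower than with AdOVA (log2 -1.85, SE 0.34, adjusted p = 0.0329). Lsm7, a core protein of RNA decay and splicing particles, read 85.8 with AdIkBa-SR, 172 with AdOVA and 216 untreated. Idi1, an enzyme of cholesterol synthesis, read 85.9 with AdIkBa-SR, 104 with AdOVA and 181 untreated, while the mean over its 2 probe sets was log2 -0.63. Apex1, a DNA repair nuclease, read 149 with AdIkBa-SR, 366 with AdOVA and 334 untreated, but over its 3 probe sets the mean was log2 -0.78.

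Other genes were at least 2-fold higher on their brightest probe set without TNFa and not with it. Rpp21, a subunit of ribonuclease P, read 331 with AdIkBa-SR and 91 untreated, against 204 with AdIkBa-SR+TNFa and 148 with TNFa. Pvr, an adhesion receptor of the nectin family, read 385 and 126 without TNFa, against 276 and 343 with it, but the mean without TNFa over its measured probe sets was log2 0.53. Sox10, a neural crest factor, read 228 with AdIkBa-SR and 81.1 untreated, with no such step given TNFa (136 and 149). The mean over its measured probe sets was log2 0.75, and its other probe sets were under the floor on both of these arrays. Gja1, the gap junction protein connexin 43, read 209 with AdIkBa-SR, 1182 with AdOVA and 84.8 untreated on the brightest of 6 probe sets, whose mean log2 ratio was 0.58.

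Immediate-early genes gave 1 of 20 at least 2-fold higher, Dusp1, and 1 lower, Dusp2, where 0.627% of all genes were higher and 0.593% lower. Dusp1, a phosphatase that turns off MAP kinases, was high in all virus arrays, at 1559 with AdIkBa-SR, 1427 with AdOVA and 567 untreated, and 1399 with AdIkBa-SR+TNFa, 1454 with AdOVA+TNFa and 731 with TNFa. Dusp2 read 28.1 with AdIkBa-SR, under the floor, and 120.3 untreated. Fos, a subunit of AP-1, read 1348 with AdIkBa-SR, 846 with AdOVA and 739.7 untreated, and Jun read 454 with AdIkBa-SR, 469 with AdOVA and 294 untreated. Both were under 2-fold above untreated with AdIkBa-SR. Junb was lower than untreated with AdIkBa-SR and higher with AdOVA, at 169.5 with AdIkBa-SR, 681 with AdOVA and 275 untreated.

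Heat shock genes had 0 of 13 at least 2-fold apart with AdIkBa-SR, and 3 higher and 1 lower with AdOVA. Hspa1b, an inducible HSP70, read 167 with AdIkBa-SR, 699.6 with AdOVA and 115 untreated. None of 15 genes of the p53 and DNA damage response and none of 18 ER stress genes was 2-fold apart with AdIkBa-SR. Counts of 0 in such lists are near the share over all genes with AdIkBa-SR, 0.627% higher and 0.593% lower. With AdOVA that share was 4.52% higher and 4.16% lower. For Cdkn1a, the cell cycle inhibitor p21, the signals were 1428 with AdIkBa-SR, 3269.7 with AdOVA and 1518 untreated. Of 20 citrate cycle and fatty acid oxidation genes 0 were at least 2-fold lower with AdIkBa-SR, where AdOVA had 7, and Idh1 read 1316 with AdIkBa-SR, 436 with AdOVA and 1543 untreated. The 18 ribosomal protein genes had medians of -0.12 with AdIkBa-SR and -0.53 with AdOVA, and the 8 reference genes 0.03 and -0.06. Of 14 cholesterol genes, 12 were below 0 with AdIkBa-SR, with medians of -0.43 and -0.41 for the 2 viruses. Hmgcs1, which makes a precursor of cholesterol, read 336 with AdIkBa-SR, 382 with AdOVA and 535 untreated. Class I processing genes ranged from a log2 ratio of -0.29 to 0.10 over 15 measured, with Tap1, the peptide transporter, at 428 with AdIkBa-SR, 873 with AdOVA and 438 untreated.

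Granulocyte markers had a median log2 of 0.25 over 9 measured genes in AdIkBa-SR over untreated. Of the 9, 6 were above 0 and 3 below, from -0.71 to 0.58, where 3786 of all 8933 genes were above 0. Their summed signal was 23322 with AdIkBa-SR, against 17555 with AdOVA and 19883 untreated. With TNFa the sums were 25031 with AdIkBa-SR+TNFa, 9635 with AdOVA+TNFa and 12804 with TNFa, and 4 of 9 were at least 2-fold higher with AdIkBa-SR+TNFa than TNFa, where 3.13% of all genes were higher and 2.35% lower. S100a8 read 9113 with AdIkBa-SR, 6825 with AdOVA and 8278 untreated. The part of granulocytes in the differences above was not tested.

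**Figure D4:**
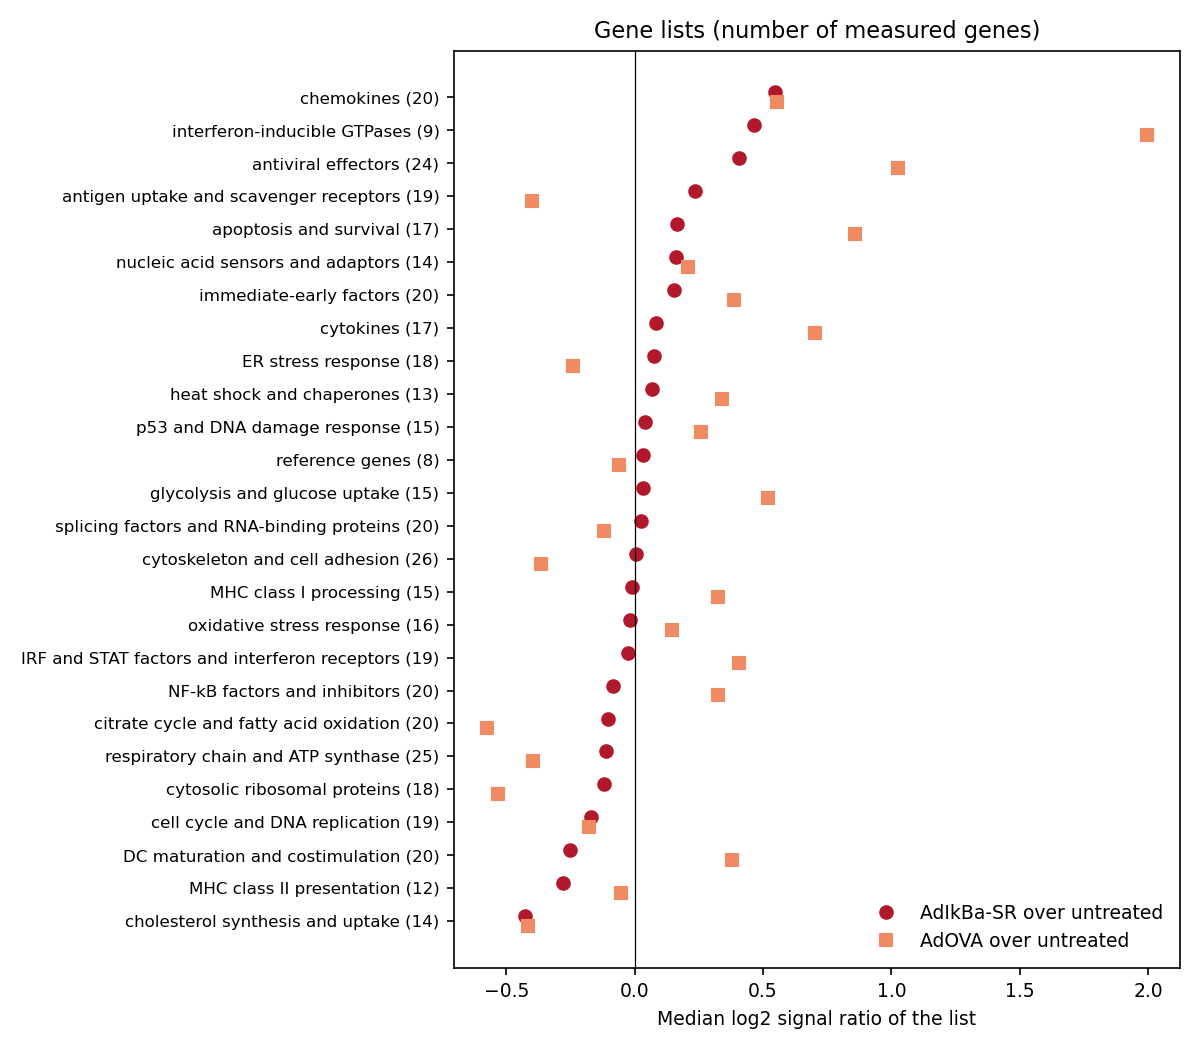
Median log2 signal ratio over untreated of 26 gene lists (number of measured genes in brackets), for AdIkBa-SR (red circles) and AdOVA (orange squares), 1 array each. Chemokines, interferon-inducible GTPases and antiviral effectors have the highest medians with AdIkBa-SR (0.55, 0.47 and 0.40) and cholesterol genes the lowest (-0.43), while AdOVA spreads wider on most lists.

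To see how far genes that respond to AdOVA moved with AdIkBa-SR, probe sets were chosen on the arrays with TNFa and read on the arrays without it, which are separate. The 932 probe sets at least 2-fold higher in AdOVA+TNFa over TNFa (6.25%) had a median log2 ratio of 0.01 in AdIkBa-SR over untreated, with an interquartile range of -0.19 to 0.33. In AdOVA over untreated the median was 0.61 (0.13 to 1.14). At least 2-fold higher were 24 of the 932 with AdIkBa-SR (2.58%) and 285 with AdOVA (30.6%). Over all measured probe sets these shares were 0.584% and 4.42%, so both were above the share over all. The 738 at least 2-fold lower (4.95%) had a median of -0.06 with AdIkBa-SR (-0.25 to 0.12) and -0.68 with AdOVA (-1.06 to -0.35). Probe sets chosen on AdIkBa-SR+TNFa over TNFa had medians near 0 as well, in AdIkBa-SR over untreated 0.01 for the 462 higher and -0.02 for the 391 lower. Both readings without TNFa use the same untreated array.

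**Figure D5:**
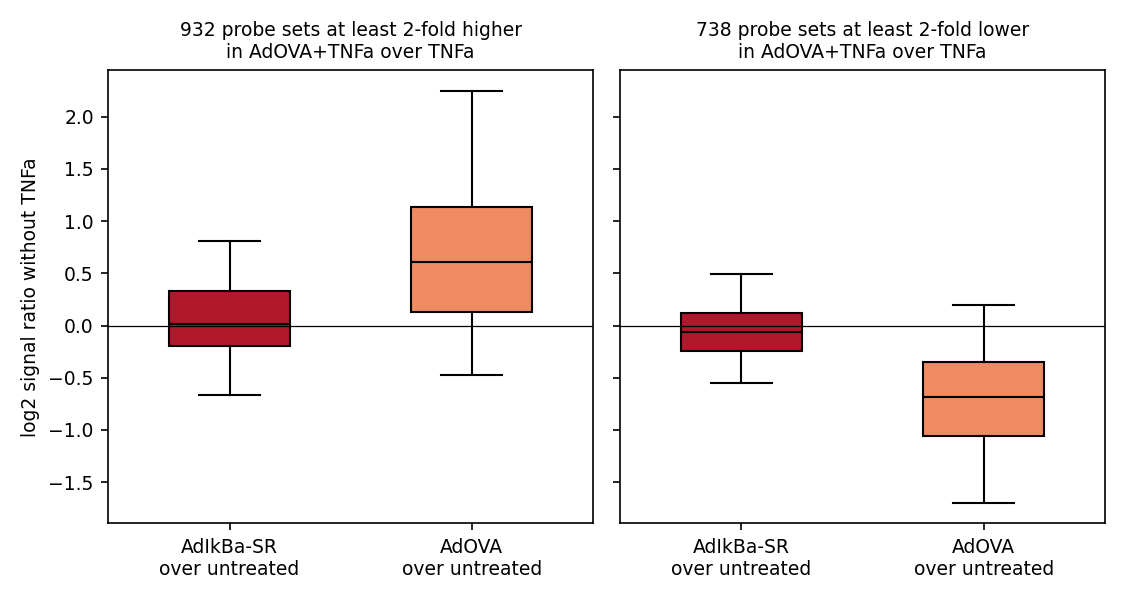
Log2 signal ratio without TNFa for probe sets chosen on the arrays with TNFa, 932 at least 2-fold higher (left) and 738 lower (right) in AdOVA+TNFa over TNFa. Boxes span the quartiles with the median as a line and whiskers reach the 5th and 95th percentiles, and AdIkBa-SR over untreated centres near 0 (0.01 and -0.06) while AdOVA over untreated is shifted (0.61 and -0.68).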

How the data were processed

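RNA of 6 groups of cells was read on 1 Affymetrix MOE430A array each. The intensity values are MAS5 signals that the authors deposited, per the submitters' processing notes, with the MAS5 version not given in the sources used here. The 2% trimmed mean was 200.1 on every array.

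Of 22690 probe sets, 64 controls were left out. The platform annotation gave 20380 of the other 22626 a single gene symbol, 691 several and 1555 none. Signals under 53.5, the 40th percentile, were set to 53.5 before taking log2, so a ratio with the dim array there is a bound. With 1 array a group the pair has no test. Limma 3.58.1 (R 4.3.3, lmFit and eBayes with trend) was fitted across all 6 arrays with Benjamini-Hochberg adjustment and a threshold of 0.05. It was also run on data simulated with additive effects and independent normal noise. Such data cannot show whether the real arrays meet those assumptions.

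A naming rule picked Nfkbia and members of the gene lists. Per direction it also picked 12 genes with the largest smaller ratio over both pairs, and up to 5 genes whose dimmer array lay under the floor in both. It further picked 8 genes with the largest ratio without TNFa and 6 genes farthest from AdOVA among those at least 2-fold apart. Not all of the genes picked are described above. Lgals2, Hivep2, Fabp4, Ccnd1 and Zdhhc3 fall outside that rule and were named after their values were seen, to complete the set at least 2-fold apart in both pairs. Members and lists were chosen with earlier results of these data known. Alternatives covered the floor, the fold threshold, scaling, the filter, the fit and arrays left out.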

Additional observations from a re-analysis of the deposited data

Results flagged for a closer look

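Clpp, a mitochondrial protease subunit, had opposite signs in the pairs without and with TNFa. Its log2 ratio was -1.33 in AdIkBa-SR over untreated and 1.02 in AdIkBa-SR+TNFa over TNFa, with 1 array each, and the difference was not tested. The mean over its probe sets without TNFa was -0.79.

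Arhgap27, a regulator of small GTPases, likewise had -1.25 without TNFa and 1.74 with it, and the difference was not tested.

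A control probe set outside the measured ones, for the 5′ part of 18S ribosomal RNA, had a signal of 340 with AdIkBa-SR, 234 with AdOVA and 120.3 untreated. With TNFa it was 537 with AdIkBa-SR+TNFa, 2601 with AdOVA+TNFa and 176 with TNFa. Its part in the results was not tested.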

How the results depend on the processing

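No called value changed sign, but the balance of higher and lower counts did turn under some settings. The counts of probe sets at least 2-fold apart follow the floor, since dim probe sets enter: higher and lower in AdIkBa-SR over untreated they were 330 and 397 with the floor at the 25th percentile, 176 and 203 with no floor and 16 added, and 9 and 3 at a 3-fold threshold, and in both pairs 49 and 35, 38 and 20, and 3 and 0. For probe sets higher in AdOVA+TNFa over TNFa, the median in AdIkBa-SR over untreated was 0.12 with equal medians and 0.17 at 3-fold, and in AdOVA over untreated 0.49 with the lower floor and 1.26 at 3-fold, where those lower had -1.10. In AdOVA over untreated, probe sets higher in AdIkBa-SR+TNFa over TNFa had -0.024 with the lower floor and those lower had -0.24 with equal medians. Limma's calls for AdIkBa-SR against no virus numbered 0 higher with the lower floor, no filter, 4 arrays without AdOVA, no AdOVA+TNFa array, hybridization time as a block or no trend (781, 703, 523, 529, 813 and 658 at an unadjusted p under 0.05), 2 with no floor, quantile normalization or 5 coefficients, 3 with equal medians, and 11 higher and 1 lower without the AdIkBa-SR array. Against AdOVA the calls higher and lower were 80 and 137 with the lower floor, 271 and 308 with no floor, 514 and 230 with equal medians, 215 and 280 with quantile normalization, 0 and 18 with no filter, 62 and 105 with 5 coefficients, 339 and 235 without the AdIkBa-SR array, 83 and 156 with no trend, and 0 and 0 without AdOVA+TNFa or with the block. Leaving out the untreated, TNFa, AdOVA or AdIkBa-SR+TNFa array, chosen after seeing the data, gave 0 to 2 higher against no virus and, against AdOVA, 0 to 61 higher and 0 to 104 lower. The lone array left in a state is assumed to vary like the others. The causes were not tested. Mmp13's adjusted p ranged between 0.00408 and 1.00 over the alternatives. Of the values of genes picked by the naming rule, not all of them described above, 244 kept their side of the threshold and 21 did not. A further 10 newly passed it, all of Btbd2, Cdk20, Tprn, C1s1 and Fasn, which are not described above. No paired analysis was possible because each group has 1 array. Signals near the floor limit what dim genes can show.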
